A study of Mus musculus with 56 samples.

Results

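The exons described here are the skipped-exon events of 9 genes known as targets of the muscleblind-like (MBNL) splicing regulators: Nfix, Ablim1, Insr, Numa1, Mapt, Camk2d, Kif13a, Arhgef7 and Clasp1. A skipped-exon event is one exon with one pair of flanking exons, so the same exon can appear in several events that share reads. Events were chosen by their junction reads in the 11 deposited skipped-exon tables of the series: both sets of libraries compared in a table had to average 20 or more reads per library. By this rule 141 events of 95 distinct exons were kept, out of 96193 events in 12397 genes for the whole series. The read minimum chose the events without regard to the direction of any difference, but the genes were listed with earlier results of these data known.

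MBNL proteins are RNA-binding proteins that recognise short YGCY motifs (Y is C or U) in pre-mRNA. Bound upstream of or within an exon they usually promote its skipping, and bound downstream they usually promote its inclusion. Their sequestration by expanded CUG repeats causes the missplicing of myotonic dystrophy, in muscle and in brain. FMRP, the product of Fmr1, is an RNA-binding protein best known for control of translation, and its loss causes fragile X syndrome.

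The study sequenced RNA of 56 mouse samples. In 6 tissues (cortex, hippocampus, cerebellum, liver, muscle and testis) 3 wild-type and 3 Fmr1 knockout (KO) samples each were compared, labelled WT and Fmr1 KO; the sources used here do not give age, sex or strain. N2a cells, a mouse neuroblastoma line, received a non-targeting siRNA (siNT, 2 samples) or an siRNA against Fmr1 (siFmr1, 3 samples). In a second N2a experiment, 5 groups of 3 received an siRNA together with a plasmid: siNT, siFmr1 or siMbnl1 with the control plasmid pcDNA, siFmr1 with a nuclear, FLAG-tagged form of MBNL1 (nMBNL1), or siMbnl1 with a FLAG-tagged form that is cytosolic (cMBNL1). Nothing in the labels says that same-group samples came from separate animals or cultures, so p-values measure only the spread between these samples, which may be technical.

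Each splicing table compares set 1 with set 2 of libraries, and the labels do not say which set of a tissue table is the KO. Tissue differences are therefore given as set 1 minus set 2, without a genotype. In N2a the unequal numbers identify set 1 as siFmr1 and set 2 as siNT. Of the 4 co-transfection tables, 3 share the same reads in set 2, here called set A, and the set compared with set A in the first of them recurs as set 2 of the remaining table, here called set B. Sets A and B are the siNT pcDNA and siFmr1 pcDNA groups in an order that is not stated. The 4 tables are called here the set B comparison (set B against set A), the siMbnl1 comparison (siMbnl1 pcDNA against set A), the cMBNL1 comparison (siMbnl1 cMBNL1 against set A) and the nMBNL1 comparison (siFmr1 nMBNL1 against set B). Because these comparisons share set A or set B, their differences are not independent of each other.

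Total gene counts were 26264368 to 41384652 per brain library and 13230785 to 16268865 per library of the other tissues and N2a. The tissue labels matched these markers, with Alb at 47800 to 73400 TPM (a unit per transcript length and library size) in liver, Acta1 at 41300 to 44600 TPM in muscle, Prm1 at 27600 to 29500 TPM in testis and Snap25 at 2800 to 5330 TPM in brain. Ttr, another liver marker looked at, was at 6760 to 9370 TPM in liver but also at 18.8 to 11100 TPM in hippocampus. It was at 4.42 to 554 TPM in cortex and 917 to 3470 TPM in cerebellum, so brain libraries of the same region differed widely in it. Fmr1 fell in the KO libraries, with log2 fold changes of -1.97 in cortex, -1.95 in testis, -1.90 in hippocampus, -1.80 in cerebellum and -1.61 in liver. In muscle it was 3.21, 3.94 and 4.33 TPM in the libraries labelled KO and 3.99, 6.09 and 4.92 TPM in those labelled WT, so the groups overlapped and the difference missed the threshold (edgeR quasi-likelihood test, adjusted p = 0.0734). In the first N2a experiment Fmr1 was 33.98 and 5.66 TPM in the libraries labelled siNT and 6.62, 6.01 and 0.70 TPM in those labelled siFmr1, so 1 library labelled siNT went against its label.

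Sequences of exons that carried differences below are shown in the sense direction, cut from GENCODE M21 transcripts (build GRCm38, coordinates on mm10), with the YGCY tetramers in capitals (TGCT, the related TGCC, also CGCT, plus CGCC). Only the strand of the RNA was searched and overlapping tetramers were counted. Shown are the 2 Mapt exons of 87 bases, numbered 2 and 3 of 13 in their longest annotated transcript (chr11:104287123-104287209 and chr11:104289908-104289994), the Nfix exon of 123 bases (chr8:84723728-84723850, minus strand), the Arhgef7 exon of 225 bases (chr8:11817660-11817884, plus strand), the Ablim1 exon of 147 bases (chr19:57046925-57047071, minus strand), the 2 Clasp1 exons of 24 bases (chr1:118512705-118512728 and chr1:118541675-118541698, plus strand), and the Camk2d exon of 60 bases (chr3:126805857-126805916, plus strand). All of these exons lay in the coding sequence of annotated transcripts and had a length divisible by 3.
Mapt exon 2: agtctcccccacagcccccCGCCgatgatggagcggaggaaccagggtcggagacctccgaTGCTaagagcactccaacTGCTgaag
Mapt exon 3: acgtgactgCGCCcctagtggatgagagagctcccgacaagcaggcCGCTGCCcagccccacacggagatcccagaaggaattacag
Nfix 123-base exon: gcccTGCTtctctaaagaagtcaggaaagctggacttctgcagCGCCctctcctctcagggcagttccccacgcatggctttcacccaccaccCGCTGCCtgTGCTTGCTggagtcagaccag
Arhgef7 225-base exon: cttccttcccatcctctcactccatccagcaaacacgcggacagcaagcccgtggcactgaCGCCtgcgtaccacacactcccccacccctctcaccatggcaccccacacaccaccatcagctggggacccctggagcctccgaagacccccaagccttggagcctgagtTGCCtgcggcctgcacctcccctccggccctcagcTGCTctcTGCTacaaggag
Ablim1 147-base exon: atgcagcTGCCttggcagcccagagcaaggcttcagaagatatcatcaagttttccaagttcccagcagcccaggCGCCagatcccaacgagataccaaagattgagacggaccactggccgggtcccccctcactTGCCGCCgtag
Clasp1 first 24-base exon: acggtactaccactaaagcggagg
Clasp1 second 24-base exon: ctgttaggagaCGCCaggagcaag
Camk2d 60-base exon: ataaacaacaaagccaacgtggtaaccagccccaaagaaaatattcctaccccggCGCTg

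The Nfix exon held 6 tetramers, the Arhgef7 and Ablim1 exons 4 each, both 87-base Mapt exons 3 each, and the second Clasp1 exon and the Camk2d exon 1 each. The first Clasp1 exon held none. A tetramer is a description of the letters and not a site of binding. Of the 94 member exons matched to an annotated exon, 75.5% held at least 1 tetramer, against 76.6% of the 65077 matched exons tested anywhere in the series. The density was 1.81 tetramers per 100 bases in the member exons and 1.57 in all. Flanking introns were not searched.

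Of the 95 exons, 23 in 8 genes were variable, meaning that their mean inclusion lay between 0.05 and 0.95 in at least 1 table. Inclusion is the length-normalised share of junction reads that join the exon, from 0 (always skipped) to 1 (always included). The other 72 exons, among them all 8 of Numa1, 9 of 10 of Insr and 7 of 8 of Kif13a, were nearly always included or nearly always skipped. A call below needs an adjusted p under 0.05 from a quasi-binomial F test over all tested events of a table and a difference of at least 0.1. Over the 501 tests of member events in the 11 tables there were 13 calls, 10 of them in Mapt, and 1 each in Nfix, Arhgef7 and Clasp1. All 13 were in the co-transfection tables, where 0.284% to 0.526% of all tested events were called, against 0% to 0.109% in the tissue and first N2a tables.

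Across tissues the member exons differed widely, and the values over all libraries of a tissue are given here as a description without a test, since brain libraries differed from the rest in kit and read length. In bulk tissue, a change in the share of cell types and a change within cells cannot be told apart. Nfix encodes a transcription factor of the nuclear factor I family. Its 123-base exon was lowest in muscle, with 0.199, 0.297 and 0.35 as the lowest, median and highest of 6 libraries. It was higher, in this order, in cerebellum (0.596, 0.747, 0.842), hippocampus (0.767, 0.830, 0.909), cortex (0.727, 0.901, 1) and liver (0.845, 0.907, 0.969) and testis (0.919, 0.977, 1). Muscle did not overlap the next tissue, and each neighbour above it in that order did.

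Ablim1, which encodes an actin-binding LIM domain protein, had its 147-base exon mostly skipped in brain and more included in muscle and N2a. It was not tested in liver or testis. The lowest, median and highest values were 0.0301, 0.0530 and 0.0811 in cerebellum. They were 0.0886, 0.167 and 0.280 in cortex and 0.0526, 0.277 and 0.395 in hippocampus, against 0.418, 0.650 and 0.960 in muscle and 0.641, 0.884 and 1 in the 5 N2a libraries. Cerebellum stood below cortex and hippocampus below muscle without overlap, and the other neighbours overlapped. Another Ablim1 exon, of 105 bases, was instead lower in N2a and muscle than in brain. Its median was 0.0195 in N2a and 0.0390 in muscle, and it was 0.577, 0.678 and 0.745 in hippocampus, cerebellum and cortex.

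Camk2d encodes the delta subunit of calcium/calmodulin-dependent protein kinase II, whose variable linker is built from small exons. Its 89-base exon, near the end of the transcript, had medians of 0.225, 0.235 and 0.273 in hippocampus, cerebellum and cortex, and of 0.807 in N2a and 0.915 in muscle. The highest cortex library, at 0.321, lay below the lowest N2a library, at 0.763. The 60-base linker exon, read between the exon before it and the exon after the 42-base exon, was almost absent in N2a (0 to 0.0375) and almost constant in muscle (0.808 to 0.966), cerebellum (0.862 to 0.984) and cortex (0.919 to 1).

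Arhgef7 encodes a guanine nucleotide exchange factor for Rac and Cdc42. Its 225-base exon was included throughout, with medians from 0.822 in N2a to 0.993 in cortex, and each neighbour in the order overlapped. Its 177-base exon split the tissues instead, with medians of 0.0713 in muscle, 0.0943 in N2a and 0.230 in testis, and of 0.692 to 0.711 in the 3 brain regions. Testis did not overlap either side.

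Clasp1 encodes a microtubule plus-end-binding protein. Its second 24-base exon had medians of 0.263 in muscle and 0.524 in N2a, and of 0.875 in cerebellum, 0.892 in hippocampus, 0.891 in testis and 0.961 in cortex. Muscle lay below N2a and N2a below the rest without overlap. A Clasp1 exon of 27 bases had the same tissues at its low end, from 0 to 0.0718 in muscle and 0.179 to 0.472 in N2a up to medians of 0.719 to 0.840 in testis and brain.

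Mapt encodes tau, the microtubule-associated protein of axons. Its 93-base exon was nearly always included in brain, with all 18 brain libraries between 0.965 and 1, and was at 0.699 to 0.739 in the first N2a experiment. Exon 2, read from the exon before it into the 66-base exon, was mostly skipped in cortex (0.0987 to 0.148), hippocampus (0.101 to 0.138) and cerebellum (0.147 to 0.229). It was included more in N2a (0.331 to 0.489), which overlapped muscle (0.0694 to 0.388).

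**Figure D1:**
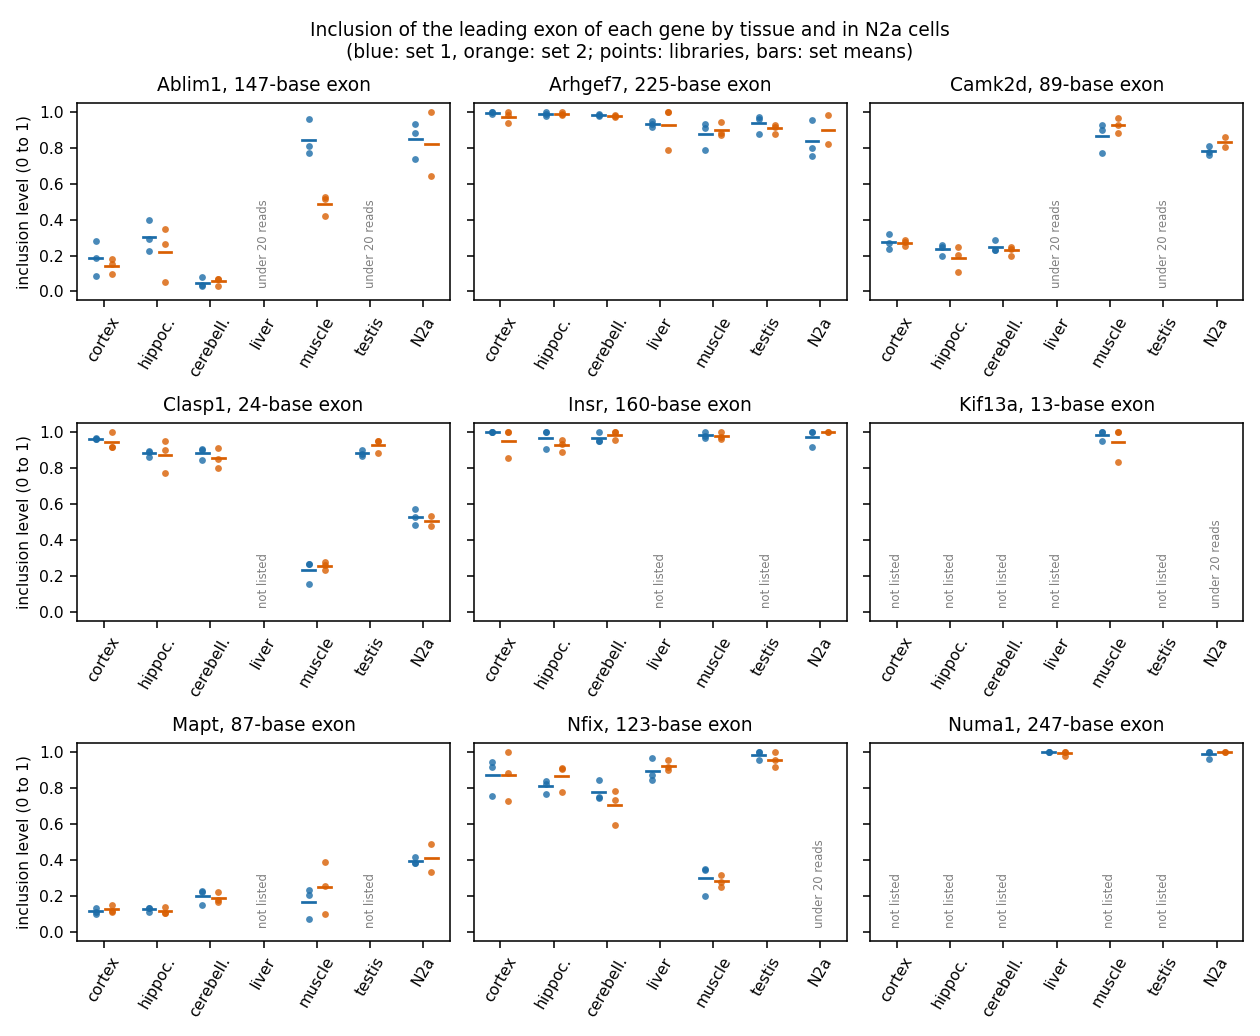
Inclusion (0 to 1, y axis) of the leading exon of each of the 9 genes in each tissue table and in the first N2a experiment (x axis), 1 point per library, with the 2 sets in different colours. Nfix is lowest in muscle, Ablim1 and Camk2d are lowest in brain, and Insr, Numa1 and Kif13a lie near 1 where they had enough reads.

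The remaining leading exons were mostly included in the tables with enough reads. In Insr, the insulin receptor, the 160-base exon had its lowest tissue or N2a library at 0.857 and medians from 0.945 to 1. The small Insr exon best known as an MBNL target was not among the 10 Insr exons tested. In Kif13a, a kinesin motor gene, the 13-base exon was tested in 5 tables, of which muscle was the only tissue, and was 0.832 to 1 there. In Numa1, a gene of the spindle pole and nuclear matrix, the 247-base exon was at 0.960 to 1 in N2a and 0.978 to 1 in liver.

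Between the 2 sets of each tissue no member exon passed the call. The counts tested were 29 in cerebellum, 26 in muscle, 23 in cortex, 22 in hippocampus, 12 in testis and 6 in liver, and 58 events were tested in the first N2a experiment, also without a call. The share of all tested events called was 0% in the 3 brain regions and in liver, 0.109% in muscle, 0.00582% in testis and 0.00442% in N2a, so a count of 0 among so few members is not a result about them. At an unadjusted p under 0.05 there were 3 member events in cerebellum, 3 in muscle, 1 in hippocampus and 0 in cortex, liver, testis and N2a. Limma on log2 read ratios also called 0 member events in each of these 7 tables, beside 0.0454% of all tested events in muscle and 0% in the other 6. The authors' deposited rMATS values, at a false discovery rate (FDR) under 0.05 and a difference of at least 0.1, gave 2 member events in muscle, where they called 0.863% of all tested events, and 0 in the others. They called 0.69% of all tested events in liver, 0.575% in N2a, 0.378% in testis, 0.204% in cortex, 0.0433% in hippocampus and 0.0168% in cerebellum.

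The 2 muscle events were the 147-base form of the Ablim1 exon and its 141-base form, which differ only in 1 splice site. The 147-base form was at 0.771, 0.960 and 0.808 in set 1 and 0.515, 0.418 and 0.529 in set 2. Every library of set 1 was above every library of set 2, on a mean of 75 and 45 junction reads per library. The difference of 0.359 missed the threshold in the quasi-binomial F test (adjusted p = 0.128), and the authors' deposited table gave it an FDR of 2.16e-04. Which set is the KO is not stated.

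Other differences of at least 0.1 in tissues also missed the threshold. The 42-base exon of Camk2d was at 0.245, 0.330 and 0.225 in muscle set 1 and 0.440, 0.329 and 0.495 in set 2, and the sets overlapped by 1 library (quasi-binomial F test, adjusted p = 0.685). In hippocampus the 105-base exon of Ablim1 was at 0.522, 0.571 and 0.444 in set 1 and 0.762, 0.583 and 0.724 in set 2, without overlap (quasi-binomial F test, adjusted p = 0.529). The 108-base exon of Clasp1 had a difference of -0.152 in cerebellum and -0.127 in hippocampus, with overlap in both. In the first N2a experiment the largest member difference was 0.134, for the 66-base exon of Mapt, with set 1 at 0.723, 0.804 and 0.826 and set 2 at 0.663 and 0.637 (adjusted p = 0.807).

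The co-transfection comparisons asked how the exons respond to depletion of Fmr1 or Mbnl1 and to added nuclear or cytosolic MBNL1. Mbnl1 itself was at 4410, 5017 and 3759 normalized counts in siNT pcDNA and at 1408, 1538 and 1509 in siMbnl1 pcDNA, a log2 fold change of -1.56 with all 3 below. It was at 11030, 12130 and 13250 in siFmr1 nMBNL1 and at 19180, 23340 and 16770 in siMbnl1 cMBNL1, far above both siRNA groups with pcDNA. The reads of the plasmid and of the endogenous gene were not separated. Fmr1 was at 2819, 3604 and 2856 normalized counts in siNT pcDNA and at 583.4 to 611.8 in siFmr1 pcDNA, so the labels held here.

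A 93-base exon of Mapt had the smallest adjusted p of the events described here. It was at 0.523, 0.672 and 0.602 in set A, and at 0.189, 0.285 and 0.302 in siMbnl1 pcDNA. All libraries with Mbnl1 depleted were below all of set A. The difference of -0.340 had an adjusted p of 1.73e-14 in the quasi-binomial F test, and the call held when any 1 of the 6 libraries was left out.

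With cytosolic MBNL1 added to the siMbnl1 cells the same exon was at 0.452, 0.378 and 0.398, between siMbnl1 pcDNA and set A and overlapping neither. Against set A the difference was -0.189 (quasi-binomial F test, adjusted p = 0.00233), a call lost without any 1 of the 3 cMBNL1 libraries (adjusted p up to 0.188). Directly against siMbnl1 pcDNA, over the events in both tables, it was higher by 0.151 (adjusted p = 0.00411, same test), a call lost without siMbnl1 cMBNL1 library 1 or siMbnl1 pcDNA library 1 (adjusted p up to 0.183). That direct comparison was chosen after the data were seen.

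Set B had this exon at 0.732, 0.781 and 0.696, above every library of set A. The difference of 0.138 (quasi-binomial F test, adjusted p = 0.0412) was lost on leaving out set B library 1 or 2 or set A library 1 or 3 (adjusted p up to 0.518). In siFmr1 nMBNL1 it was at 0.712, 0.703 and 0.770, overlapping set B, with a difference of -0.008 (adjusted p = 0.853, same test).

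In the siMbnl1 comparison 4 of 70 member events were called, all lower and all in Mapt, beside 0.413% of all events tested there (0.276% lower, 0.138% higher). Besides the 93-base exon, these were 2 events of exon 2 and 1 of exon 3, which share junction reads. Exon 2 read into the 66-base exon was at 0.237, 0.218 and 0.156 in siMbnl1 pcDNA and at 0.421, 0.378 and 0.490 in set A. The sets did not overlap, the difference was -0.226 (quasi-binomial F test, adjusted p = 1.08e-04), and the call held with each of the 6 libraries left out. Read past the 66-base exon, exon 2 was at 0.527, 0.439 and 0.345 against 0.695, 0.814 and 0.753, a difference of -0.317 that also held in each of the 6 leave-outs.

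Exon 3, read from the exon before exon 2 into the 66-base exon, was at 0.119, 0.144 and 0.108 in siMbnl1 pcDNA and 0.304, 0.246 and 0.326 in set A. Its difference of -0.168 passed the test (quasi-binomial F test, adjusted p = 0.00961), but not without siMbnl1 pcDNA library 3 or set A library 3 (adjusted p up to 0.194). The 66-base exon read after exon 2 was at 0.679, 0.671 and 0.772 against 0.421, 0.536 and 0.394, higher in all 3 libraries, on fewer reads, and was not called (adjusted p = 0.206, same test).

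In the cMBNL1 comparison 4 of 94 member events were called, 3 lower and 1 higher, beside 0.526% of all events tested (0.388% lower, 0.139% higher). They were the Mapt 93-base exon, both events of Mapt exon 2, and the first 24-base exon of Clasp1. None of the 4 was called when any single cMBNL1 library was left out. Exon 2 read into the 66-base exon was at 0.239, 0.177 and 0.263, below every library of set A, with a difference of -0.203 (quasi-binomial F test, adjusted p = 0.0111). Against siMbnl1 pcDNA the same event differed by 0.0225 only, and the groups overlapped (adjusted p = 0.978, same test). For exon 2, unlike the 93-base exon, the values with and without cytosolic MBNL1 were therefore side by side, although the difference between the 2 exons was not tested.

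The first 24-base exon of Clasp1 was at 0.0762, 0.181 and 0.183 in siMbnl1 cMBNL1 and 0, 0.0487 and 0 in set A, a gain of 0.131 on a low level (quasi-binomial F test, adjusted p = 0.0476). Its values in siMbnl1 pcDNA, 0.0693, 0.164 and 0.0584, were also all above set A, by 0.081, and were not called (adjusted p = 0.679, same test). This exon was at 0.186, 0.0295 and 0.110 in siFmr1 and 0.101 and 0 in siNT of the first N2a experiment, with overlap.

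**Figure D2:**
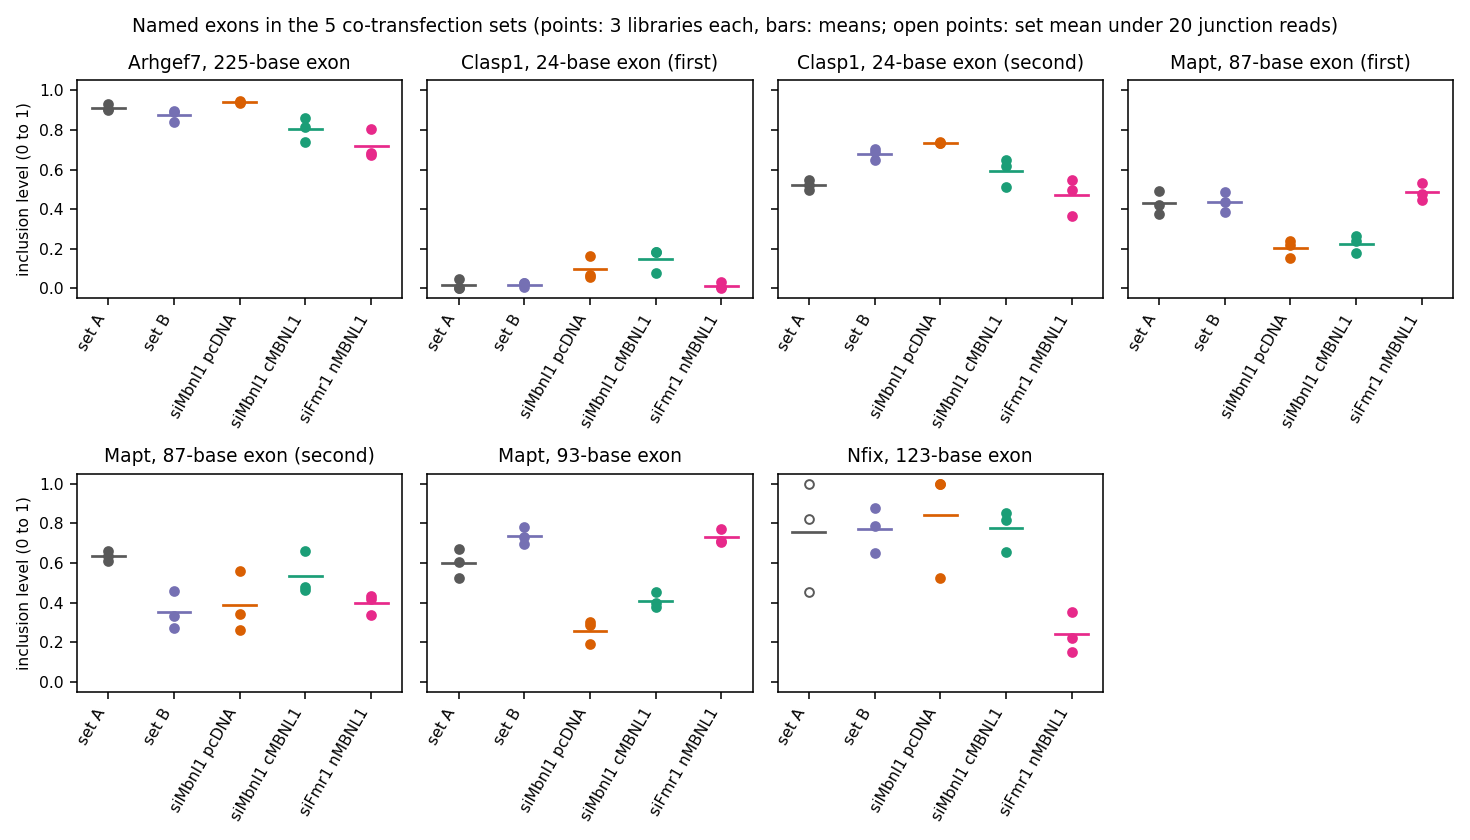
Inclusion (0 to 1, y axis) of the exons of Arhgef7, Clasp1, Mapt and Nfix named for their calls in the 5 sets of the co-transfection tables (x axis), 1 point per library. The Mapt 93-base exon falls from 0.523 to 0.672 in set A to 0.189 to 0.302 in siMbnl1 pcDNA, with siMbnl1 cMBNL1 between them.

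In the set B comparison 3 of 79 member events were called, 1 higher and 2 lower, beside 0.468% of all events tested (0.342% higher, 0.126% lower). Besides the 93-base exon these were 2 events of Mapt exon 3 read after exon 2, which share reads, and both were lower in set B. Read into the 66-base exon, exon 3 was at 0.831, 0.826 and 0.724 in set B and 1, 0.957 and 0.938 in set A (difference -0.172, quasi-binomial F test, adjusted p = 0.00452). Read past the 66-base exon it was at 0.333, 0.456 and 0.274 against 0.658, 0.610 and 0.637, a difference of -0.281 (adjusted p = 0.00204, same test). The sets did not overlap in either event, and both calls were lost without set B library 3 (adjusted p 0.145 and 0.0886). Sets A and B are the control and the Fmr1-depleted cells in an order that is not stated and was not tested from their reads. No direction is therefore tied to Fmr1 here.

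In the nMBNL1 comparison 2 of 82 member events were called, both lower, beside 0.284% of all events tested (0.2% lower, 0.0843% higher). The Nfix 123-base exon was at 0.148, 0.222 and 0.354 with nuclear MBNL1 and at 0.788, 0.877 and 0.651 in set B. This difference of -0.531 was the largest among the member events of the 11 tables (quasi-binomial F test, adjusted p = 6.94e-04). It rested on means of 24 and 30 junction reads per library, and the call was lost without siFmr1 nMBNL1 library 1 (adjusted p = 0.0774, same test). Without siFmr1 nMBNL1 library 2 the exon had too few reads to be tested, and the call held in the other 4 leave-outs. The other 3 co-transfection tables had too few reads for this exon.

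The Arhgef7 225-base exon was at 0.673, 0.805 and 0.682 in siFmr1 nMBNL1 and at 0.890, 0.840 and 0.894 in set B. The difference of -0.154 was called (quasi-binomial F test, adjusted p = 0.00382) on 323 and 315 reads per library, and was lost without library 1 or 3 of either group (adjusted p up to 0.280). With cytosolic MBNL1 the exon was at 0.816, 0.737 and 0.860, below the 0.941, 0.933 and 0.947 of siMbnl1 pcDNA and below the 0.903, 0.930 and 0.901 of set A. Against siMbnl1 pcDNA the difference of -0.136 was called (adjusted p = 0.0109, same test), but not without siMbnl1 cMBNL1 library 2 or siMbnl1 pcDNA library 3. Against set A the difference of -0.107 was not called (adjusted p = 0.199, same test), whereas the authors' deposited table gave it an FDR of 6.64e-04. In siMbnl1 pcDNA it was 0.0292 above set A and not called (adjusted p = 0.749).

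The second 24-base exon of Clasp1 missed the threshold in every table, in the quasi-binomial F test. It was at 0.522, 0.496 and 0.547 in set A, 0.704, 0.686 and 0.646 in set B and 0.733, 0.737 and 0.734 in siMbnl1 pcDNA. With nuclear MBNL1 in siFmr1 cells it was at 0.365, 0.546 and 0.497, below every library of set B, with a difference of -0.209 (quasi-binomial F test, adjusted p = 0.0635). With cytosolic MBNL1 in siMbnl1 cells it was at 0.620, 0.511 and 0.646, below every siMbnl1 pcDNA library (adjusted p = 0.614, same test). Against set A, siMbnl1 pcDNA was higher by 0.213 (adjusted p = 0.182) and set B by 0.157 (adjusted p = 0.450), both without overlap, whereas siMbnl1 cMBNL1 was higher by 0.0705 with overlap (adjusted p = 0.664, same test). The authors' deposited table called this exon in 3 comparisons, with an FDR of 0.00499 for set B, 4.87e-05 for siMbnl1 and 0.00452 for nMBNL1.

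The direct comparison of siMbnl1 cMBNL1 with siMbnl1 pcDNA gave 3 calls among 64 member events, 2 higher and 1 lower, beside 0.305% of all events tested (0.112% higher, 0.192% lower). They were the Mapt 93-base exon, the Arhgef7 225-base exon and the 60-base exon of Camk2d. The Camk2d exon, read into the 42-base exon, was at 0.429, 0.631 and 0.614 with cytosolic MBNL1 and at 0.151, 0.125 and 0.172 without, a difference of 0.409 on means of 38 and 25 reads (quasi-binomial F test, adjusted p = 0.0409). The call held in 1 of 6 leave-outs. Read past the 42-base exon, the same 60-base exon was nearly absent in both groups, at 0.0285, 0.0207 and 0.0211 against 0.0110, 0.0151 and 0.00798. The Camk2d exon was picked for description after its values were seen.

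Camk2d's 89-base exon, Ablim1's 147-base exon and the Insr, Kif13a and Numa1 leading exons gave no call in any co-transfection table. The 89-base exon was at 0.628 to 0.818 in all 5 groups, and the 147-base exon at 0.859 to 0.948. For Numa1, 2 events of its 247-base and 229-base exons in the cMBNL1 comparison had adjusted p-values of 0.0148 and 0.0122 in the quasi-binomial F test with differences under 0.1. The 229-base exon was at 0.925, 0.907 and 0.907 in siMbnl1 cMBNL1 and at 1 in all 3 libraries of set A. Kif13a's 13-base exon was at 0.648 to 1 with overlapping groups.

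Other ways of calling gave other counts. The authors' deposited FDR with the same minimum difference called 4 member events in the set B comparison, 7 in the siMbnl1, 3 in the nMBNL1 and 8 in the cMBNL1 comparison, beside 1.68%, 1.82%, 1.03% and 1.87% of all tested events. Limma on log2 read ratios called 0 member events in these 4 and in the direct comparison, beside 0%, 0%, 0.0678%, 0.164% and 0.00937% of all tested events.

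**Figure D3:**
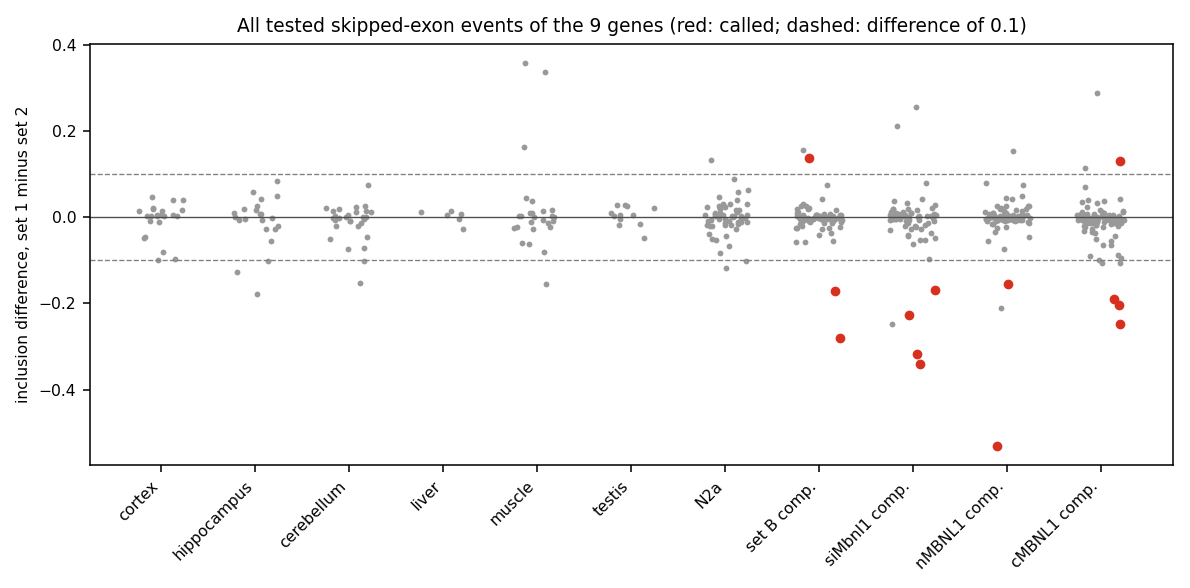
Difference in inclusion (set 1 minus set 2, y axis) of each tested member event by table (x axis), with called events marked. The called events lie in the 4 co-transfection tables, from -0.531 for Nfix in the nMBNL1 comparison to 0.138 for Mapt in the set B comparison.

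Other genes known as MBNL targets, a list that includes Mbnl1, Mbnl2, Atp2a1, Clcn1, Ldb3 and Picalm, gave counts of the same order. In the set B comparison, 3 of 103 of their events were called higher and 2 lower. In the siMbnl1 comparison there were 0 and 3 of 109, in the nMBNL1 comparison 4 and 2 of 113, and in the cMBNL1 comparison 2 and 3 of 132. Over all tested events the share called was 0.468%, 0.413%, 0.284% and 0.526% in these comparisons, in the order given. Mbnl1, on this list, is both an siRNA target and the gene on the added plasmids, and its events were not counted apart. The median absolute difference of the member events was 0.00588, 0.0129, 0.00634 and 0.0109 in the set B, siMbnl1, nMBNL1 and cMBNL1 comparisons, against 0.00606, 0.00659, 0.0058 and 0.00656 over all tested events.

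The levels of the 9 genes across tissues were compared per length, in TPM. Mapt was the most tissue-restricted, with medians of 338, 310 and 273 TPM in cerebellum, cortex and hippocampus, 76.2 in N2a, 21.8 in muscle, 1.83 in testis and 0.625 in liver. Cerebellum (326 to 343 TPM) lay just above cortex (296 to 325 TPM) without overlap. Nfix ran from a median of 195 TPM in cerebellum through 146 in hippocampus, 103 in cortex, 102 in muscle and 40.3 in liver to 3.08 in testis and 2.82 in N2a. Its hippocampus and cortex ranges overlapped, as did cortex and muscle, and testis and N2a. Ablim1 had medians of 226, 76.3 and 52.1 TPM in cerebellum, cortex and hippocampus, 33.8 in N2a and 16.5 in muscle, and 8.32 in liver and 2.10 in testis.

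Arhgef7 was likewise highest in cerebellum, with 206 to 227 TPM, and lowest in liver, with 7.35 to 9.95 TPM. Camk2d had a median of 142 TPM in cerebellum, where cortex varied from 46.3 to 108 TPM between libraries. Numa1 and Kif13a were also highest in cerebellum, at medians of 95.6 and 40.6 TPM. Insr was more even, with medians of 19.1 to 28.0 TPM in brain, liver and muscle, 15.4 in N2a and 4.60 in testis. Clasp1 was at medians of 42.4 to 48.9 TPM in brain and 34.2 TPM in testis, with 12.3 in muscle and 4.0 in liver.

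**Figure D4:**
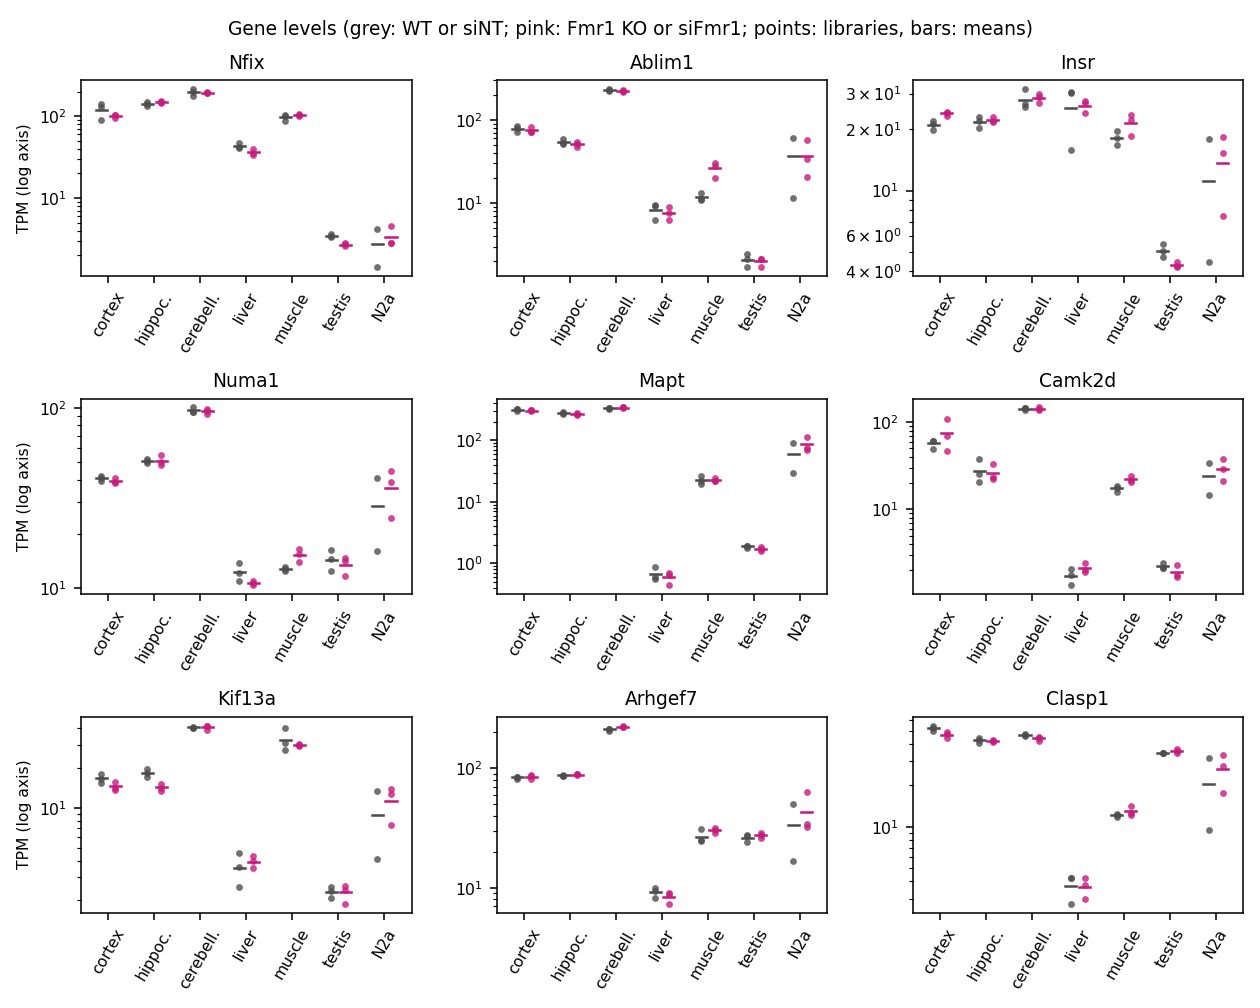
Level in TPM (y axis, log scale) of the 9 genes in each tissue and in the first N2a experiment, 1 point per library, with WT or siNT and KO or siFmr1 in different colours. Mapt spans from about 0.44 TPM in liver to 343 TPM in cerebellum, and in muscle the KO points of Ablim1 lie above its WT points.

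Between Fmr1 KO and WT, where the genotype of each library is known, 1 of the 9 genes was called in 1 of 6 tissues. In muscle Ablim1 was at 28.07, 19.84 and 30.69 TPM in KO and 13.25, 10.89 and 11.27 TPM in WT, so that all KO libraries were above all WT ones. It rose by 0.92 ± 0.15 log2 units (SE, n = 3 per group, edgeR quasi-likelihood test, adjusted p = 0.0206), beside 4.04% of all genes called in muscle (8.36% by DESeq2, which also called Ablim1). The call was lost without KO sample 1 or KO sample 3 (adjusted p up to 0.126). Muscle is the tissue whose Fmr1 levels overlapped between the groups, and Ablim1 is also the gene whose exon differed most between the muscle sets. Whether the libraries with more Ablim1 are those with more exon inclusion was not tested, since the splicing sets are unlabelled.

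In the other tissues edgeR called 0 of the 9 genes, beside 4.27% of all genes in testis, 0.411% in liver, 0.226% in cerebellum, 0.209% in hippocampus and 0.0203% in cortex. The first N2a experiment also had 0, beside 0% of all genes. At an unadjusted p under 0.05 the counts were 3 in cortex, 2 in testis, 1 each in hippocampus and liver, and 0 in cerebellum and N2a. DESeq2 called Kif13a in hippocampus and 0 in the others named here, beside 8.56% of all genes in cortex, 4.81% in testis, 2.53% in hippocampus, 2.26% in liver, 0.744% in cerebellum and 0% in N2a. In edgeR Kif13a had there a log2 fold change of -0.35 ± 0.07 (SE, n = 3 per group) that missed the threshold (adjusted p = 0.117), against an adjusted p of 0.00311 in DESeq2. In N2a the libraries varied within groups far more than between them. Ablim1 was at 61.34 and 11.52 TPM in the libraries labelled siNT and 57.19, 33.77 and 20.51 TPM in siFmr1, and without the library labelled siNT with low Fmr1 there was also no call. That fit sets 1 siNT library against 3 and takes its spread from the siFmr1 libraries alone, so it says little.

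The KO effect on the 9 genes was compared between the 3 brain regions with an interaction term, with all brain samples taken as independent. None of 27 differences passed (edgeR quasi-likelihood test), beside 0%, 0% and 0.00645% of all genes for hippocampus minus cortex, cerebellum minus cortex and cerebellum minus hippocampus, with 2 passing when cortex WT sample 3 was left out. The largest was for Camk2d, hippocampus minus cortex, at -0.4365 log2 units (edgeR, adjusted p = 0.70). The smallest p was for Kif13a, cerebellum minus hippocampus, at 0.365 log2 units (edgeR, unadjusted p = 9.94e-04, adjusted p = 0.67).

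In the co-transfection experiment many genes differed from siNT pcDNA. Against it 37% of all genes were called in siFmr1 pcDNA, 32.8% in siMbnl1 pcDNA, 41.1% in siFmr1 nMBNL1 and 33.7% in siMbnl1 cMBNL1. Between groups that share an siRNA the share was 1.76% for nMBNL1 against pcDNA in siFmr1 cells and 2.24% for cMBNL1 against pcDNA in siMbnl1 cells. Calls against siNT pcDNA are therefore near the background of that comparison, and what part a shared shift of the control libraries has in them was not tested. The 4 comparisons share the same control samples and are given side by side.

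Mapt was at 6023, 6001 and 5839 normalized counts in siFmr1 pcDNA and at 2996, 3749 and 3550 in siNT pcDNA. It was higher by 0.80 ± 0.10 log2 units (SE, n = 3 per group, limma on log2(value + 1), adjusted p = 2.60e-05), and the call held in each of the 6 leave-outs. With nuclear MBNL1 in siFmr1 cells it was at 4255, 3779 and 4044, below every siFmr1 pcDNA library, a log2 fold change of -0.57 (limma, adjusted p = 0.0174). This was the 1 member gene called in that comparison, beside the 1.76% above, and it does not involve siNT pcDNA. The call was lost without nMBNL1 library 2 or 3 or siFmr1 pcDNA library 1 or 2 (limma, adjusted p up to 0.0974). In siMbnl1 cells Mapt was 3592, 3463 and 4520 with pcDNA and 3799, 3184 and 3882 with cMBNL1, with overlap.

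Against siNT pcDNA, 3 of 9 genes were called in siFmr1 pcDNA, all higher: Mapt, Nfix by 0.75 and Arhgef7 by 0.38 log2 units. In siMbnl1 pcDNA there were 4, of which Ablim1 was higher by 0.53 and Clasp1, Insr and Camk2d differed by -0.33, -0.32 and -0.19. In siFmr1 nMBNL1 there were 3, with Arhgef7 higher by 0.31 and Insr and Clasp1 at -0.45 and -0.26. In siMbnl1 cMBNL1 there were 4, all higher: Nfix by 0.63, Ablim1 by 0.53, Arhgef7 by 0.44 and Kif13a by 0.26. Of these 14 calls, those of Mapt, Ablim1 and Arhgef7, and of Insr in siFmr1 nMBNL1, held in every leave-out, and the other 7 were lost in at least 3 of 6. In size these 7 fell as far as 0.45 (Nfix) in siFmr1 pcDNA, and -0.19 (Clasp1), -0.21 (Insr) and -0.12 (Camk2d) in siMbnl1 pcDNA. They fell as far as -0.11 (Clasp1) in siFmr1 nMBNL1, and 0.33 (Nfix) and 0.17 (Kif13a) in siMbnl1 cMBNL1. With only the 6 libraries compared in the fit, the call of Arhgef7 in siFmr1 nMBNL1 was also lost (limma, adjusted p = 0.0801).

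Ablim1 had the clearest split by siRNA. Both siMbnl1 groups lay above the other 3 groups, at 5244, 5474 and 5667 normalized counts with pcDNA and 4882, 5695 and 5844 with cMBNL1, against 3428 to 4391 in the 9 libraries without siMbnl1. Within siMbnl1 cells the 2 plasmids differed by -0.00054 log2 units. Of the 9 genes, 0 were called between cMBNL1 and pcDNA in siMbnl1 cells (limma), beside 2.24% of all genes, with 4 at an unadjusted p under 0.05 and 4 called when only those 6 libraries were fitted.

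**Figure D5:**
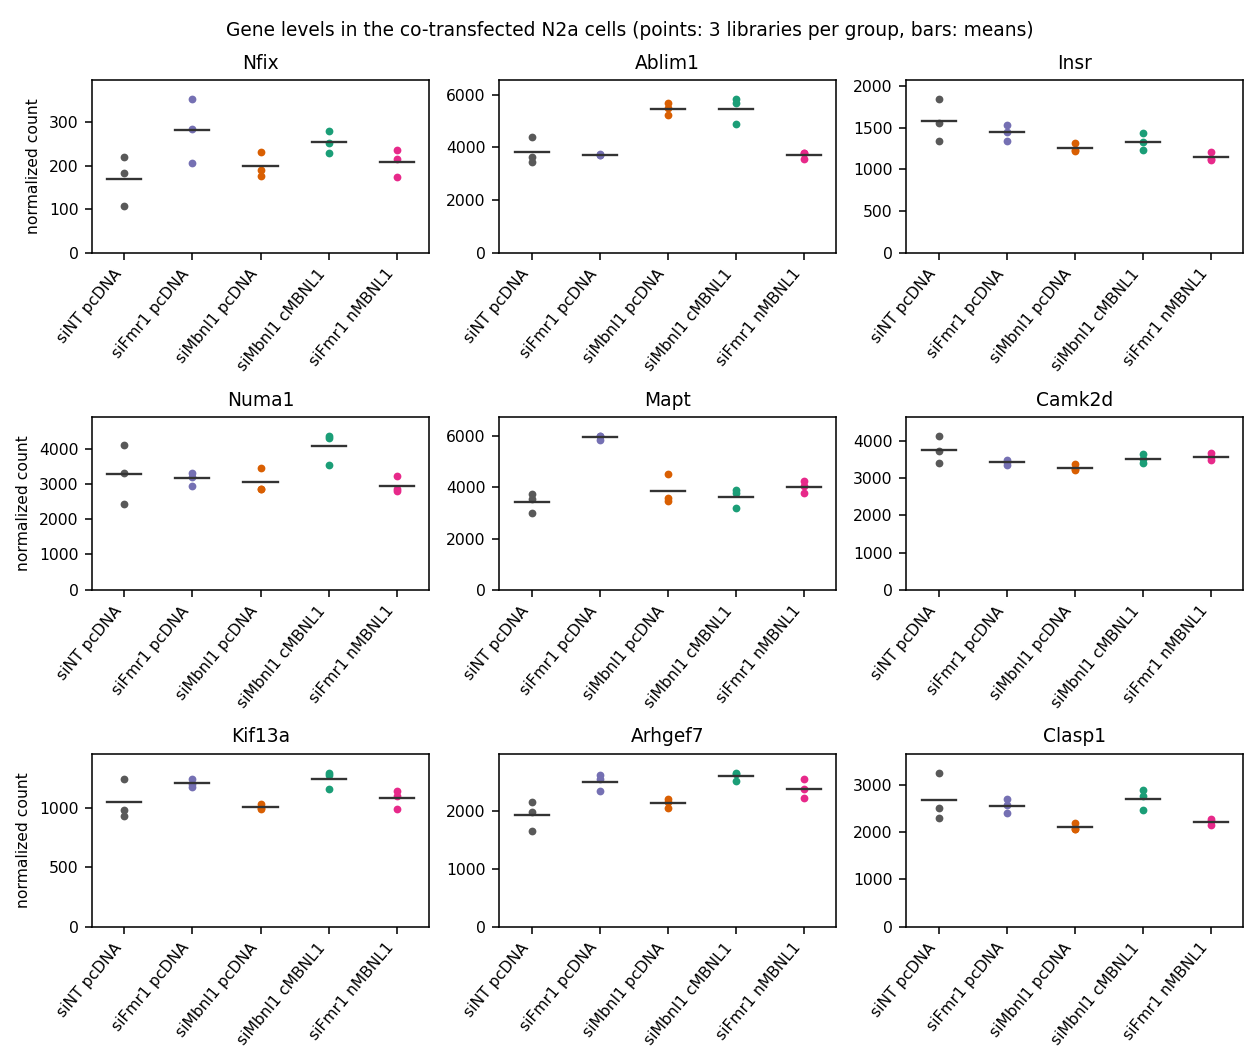
Normalized counts (y axis, linear from 0) of the 9 genes in the 5 co-transfection groups (x axis), 1 point per library. Mapt is highest in siFmr1 pcDNA at 5839 to 6023, and Ablim1 is higher in both siMbnl1 groups than in the other 3.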

How the data were processed

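Gene and splicing tables deposited by the authors were used as given. Per the submitters' processing notes, reads were trimmed and aligned with tools that include Trimmomatic 0.39, STAR 2.6.1 and RSEM 1.3.1 on GRCm38 (mm10). Brain libraries were made from poly(A) RNA with a directional kit, and peripheral and first-experiment N2a libraries were made by a service company, per the labels' protocols. The authors deposited counts and TPM per gene for tissues and the first N2a experiment, and normalized counts (a signal, already scaled between libraries) for the co-transfection. The deposited splicing tables, in rMATS format per the file headers, give inclusion and skipping junction reads for each library as comma-separated lists with inclusion levels and a score of significance (p-value and FDR) for each event. Of the per-sample columns, 4 matched no sample and were not used, and 4 rows with duplicated gene names were left out.

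Inclusion was recomputed from junction reads divided by the deposited form lengths (skipping form 34 in brain and 149 elsewhere), and differed from the deposited levels by at most 0.001. Events with a mean of at least 20 reads per library in both sets were tested with a quasi-binomial F test, with dispersions moderated by limma 3.58.1 and not allowed under 1, and Benjamini-Hochberg adjustment over all tested events of a table. Gene counts were tested per tissue with edgeR 4.0.16 (TMM scaling, quasi-likelihood test), and normalized counts with limma on log2(value + 1) over all 15 co-transfection libraries, which share 1 estimate of the spread. A gene call is an adjusted p under 0.05. Both procedures were tested on simulated data.

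The member genes and all lists were chosen with earlier results of these data known. For each gene the text follows 1 leading event, the variable one tested in the most tables, plus up to 3 further called exons. Numa1 had no variable event, so its leading event was chosen from all its events. Exons outside these rules are named as shown for the pattern they gave. Within a comparison, sample numbers did not pair the groups: correlations of same-numbered deviations were not all above 0.1 in any comparison. Whether same-numbered samples of different tissues came from the same animal was not tested. The comparison of siMbnl1 cMBNL1 with siMbnl1 pcDNA for splicing was added after the data were seen. PCR duplicates were not marked by molecular identifiers in these tables, so read numbers cover counting error only. A sequence and a gene are not reported here.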

Additional observations from a re-analysis of the deposited data

Results flagged for a closer look

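Arhgef7 and Insr had knockout effects of opposite sign in 2 tissues, with every KO library on one side of every WT library in each tissue in counts per library size (CPM). In TPM the groups of Arhgef7 in liver overlapped, at 8.81, 9.09 and 7.35 in KO and 8.26, 9.42 and 9.95 in WT. The log2 fold change of Arhgef7, KO against WT, was 0.0979 in cerebellum and -0.1741 in liver. That of Insr was 0.1664 in cortex and -0.2296 in testis. None of these 4 values passed the edgeR quasi-likelihood test after adjustment over all genes (adjusted p 0.581, 0.659, 0.148 and 0.156), and the difference between the tissues was not tested.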

How the results depend on the processing

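No result changed direction under any alternative run. Of the values of group comparisons under the alternatives, 227 stayed within 1.5 times of the reported count and 45 moved further. Counts of 0 that stayed 0 are among the 227. Of the values of single called exons and genes under the alternatives, several for each, 230 kept the call and 99 lost it. With limma on log2 read ratios, 0 member exons were called in the set B, siMbnl1, nMBNL1 and cMBNL1 comparisons and in siMbnl1 cMBNL1 against siMbnl1 pcDNA. The deposited FDR gave 2 in muscle, 7 in the siMbnl1 and 8 in the cMBNL1 comparison. A minimum of 40 reads gave 1 in the nMBNL1 comparison, where the Nfix exon then falls below the minimum, and no minimum difference gave 7 in the cMBNL1 comparison. Leaving out 1 library at a time gave 1 to 3 member exons in the set B comparison, 3 to 4 in the siMbnl1, 0 to 2 in the nMBNL1, 0 to 4 in the cMBNL1 and 1 to 2 in the direct siMbnl1 comparison. For gene levels, DESeq2 gave 1 in hippocampus, and fitting the replicate number as a replicate block, although the numbers do not pair the samples, gave 0 in muscle and changed no count of the other comparisons by over 1.5 times. Without a low-value filter, siMbnl1 cMBNL1 against siNT pcDNA gave 2. Fitting only the 6 libraries compared gave 1 for siMbnl1 pcDNA, 1 for siFmr1 nMBNL1 and 2 for siMbnl1 cMBNL1 against siNT pcDNA, 3 for siFmr1 nMBNL1 against siFmr1 pcDNA and 4 for siMbnl1 cMBNL1 against siMbnl1 pcDNA. Leaving out 1 library at a time gave 0 to 1 gene in cortex, 0 to 1 in muscle, 2 to 4 for siFmr1 pcDNA, 1 to 4 for siMbnl1 pcDNA, 2 to 4 for siFmr1 nMBNL1 and 2 to 5 for siMbnl1 cMBNL1 against siNT pcDNA, 0 to 1 for siFmr1 nMBNL1 against siFmr1 pcDNA, and 0 to 2 for the differences between brain regions. The cause of these changes was not tested. For the splicing tables, no paired analysis was possible because their set columns carry no replicate numbers. Low junction reads limit several exons, among them those of Nfix and Kif13a and the first 24-base exon of Clasp1.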

Other observations

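Exons of the same gene differed in their tissue order. In Arhgef7, the 177-base exon ranged from a median of 0.0713 in muscle to 0.711 in cerebellum, whereas the 225-base exon stayed between 0.822 and 0.993. In Ablim1, the 84-base exon was at 0.0129 to 0.0297 in the first N2a experiment and at 0.138 to 0.556 in muscle. The Nfix exon of 148 bases was mostly skipped, with medians from 0.0532 in muscle to 0.25 in cerebellum, where it did not overlap the other tissues.
Values of the Clasp1 exon of 108 bases in the co-transfection groups were 0.196, 0.270 and 0.231 in set A, 0.254, 0.234 and 0.437 in set B and 0.183, 0.225 and 0.209 in siMbnl1 pcDNA. They were 0.465, 0.412 and 0.509 in siFmr1 nMBNL1 and 0.372, 0.319 and 0.349 in siMbnl1 cMBNL1. The smallest adjusted p of these 5 comparisons was 0.406 (quasi-binomial F test), so no difference passed the threshold of that test. The authors' deposited table gave siMbnl1 cMBNL1 against set A an FDR of 0.045 with a difference of 0.114.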
